A study of Mus musculus with 20 samples.

Results

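Activins, their follistatin antagonists and their receptors were followed as 9 genes through cultured mouse renal myofibroblasts with and without the ubiquitin ligase WWP2. The genes were chosen by name: the activin subunit genes Inhba and Inhbb, the follistatin family genes Fst, Fstl1 and Fstl3, the type I receptor genes Acvr1 and Acvr1b, and the type II receptor genes Acvr2a and Acvr2b. They are 9 of the 51826 genes in the count table, and all 9 were among the 20407 genes tested.

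The cells were primary renal myofibroblasts of the C57BL/6J strain that had grown out of minced kidney and were not cloned. WT and WWP2-/- cells came from littermates of heterozygous matings. The study describes the WWP2-/- cells as lacking the full-length and the N-terminal isoform. Each genotype was left untreated or received TGFb1, with 5 replicates in each of the 4 groups and 20 libraries in all. The labels do not hold the dose and duration of TGFb1, the sex of the mice or the animal behind each replicate. The study's text states a dose and duration, and says in general that a data point stands for a mouse or for cells from a mouse. P values measure the spread between these libraries. Their sex-linked transcripts, given below, show that the 20 libraries were not all repeats of a single sample. They do not show that the 5 replicates of a group came from different animals.

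Activins are dimers of inhibin beta subunits: Inhba encodes the subunit of activin A and Inhbb that of activin B. An activin binds a type II receptor (encoded by Acvr2a or Acvr2b), which recruits and phosphorylates a type I receptor, mainly the one encoded by Acvr1b. That receptor then phosphorylates SMAD2 and SMAD3, the same transducers that TGFb1 uses. Follistatin (Fst) and follistatin-like 3 (Fstl3) wrap around activins and keep them from their receptors, whereas follistatin-like 1 (Fstl1) is a more distant secreted relative. In fibroblasts activin A is known as a profibrotic factor that can be induced by TGFb1, and follistatin as a limit on it. The receptor encoded by Acvr1 binds mainly BMP ligands and can form complexes with activin A.

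Inhba and the antagonist gene Fstl3 had levels that went together across the libraries, as described further on. The 250 bases before their RefSeq starts (GRCm38.p6) are shown for that reason, in lower case with matches to TATAAA or CAGAC on either strand in capitals. The Inhba stretch is chr13:16011601-16011850 on the plus strand and the Fstl3 stretch is chr10:79777024-79777273 on the plus strand.
Inhba: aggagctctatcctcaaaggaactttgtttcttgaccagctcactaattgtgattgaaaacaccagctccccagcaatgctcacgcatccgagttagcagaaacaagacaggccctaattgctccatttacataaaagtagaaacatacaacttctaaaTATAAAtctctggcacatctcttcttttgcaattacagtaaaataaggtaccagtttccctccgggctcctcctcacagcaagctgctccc
Fstl3: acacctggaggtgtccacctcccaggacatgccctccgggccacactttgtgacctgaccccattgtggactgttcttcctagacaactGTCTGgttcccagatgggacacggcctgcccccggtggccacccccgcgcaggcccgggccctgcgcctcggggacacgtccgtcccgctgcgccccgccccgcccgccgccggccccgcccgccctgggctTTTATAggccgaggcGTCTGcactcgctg

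The letters TATAAA, a core promoter element, began 91 bases before the Inhba start, and their reverse complement began 29 bases before the Fstl3 start. Of the 8 members with a RefSeq promoter in the table used, these 2 held the match, and 12.4% of 32851 such stretches from all genes did. Matches to CAGAC, the core of a SMAD binding element, stood in the stretches of Fstl3, Acvr2a and Acvr2b and not in that of Inhba, against 42.2% of all stretches. No member held TGANTCA, the AP-1 element, which occurred in 6.75%. These motifs do not overlap one another, and a match of letters is a description of the sequence only.

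Library totals lay between 47520759 and 73063697 counts. Levels are given as CPM, counts scaled to the size of the library. Wwp2 had 53.1 ± 4.14 CPM (SD, n = 5) in untreated WT cells and 20.5 ± 1.62 in untreated WWP2-/- cells, and 53.5 ± 2.89 and 19.0 ± 1.72 with TGFb1, with no overlap between genotypes. Wwp2 was lower at adjusted P = 1.05e-08 with TGFb1, so the labels and the targeted gene agree, although its counts did not reach 0. Of 9 fibroblast markers, 6 were above 1 CPM in every library. So were 7 of 8 macrophage markers, whose summed level ran from 79.6 to 3876 CPM. The tubular list summed to 12.1 to 708 CPM and the endothelial list to 7.27 to 162 CPM.

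Some libraries stood apart from their group. Untreated WWP2-/- replicate 3 and TGFb1-treated WWP2-/- replicate 1 had 38.9 and 50.4 CPM of the myofibroblast marker Acta2, against at least 1016 CPM in each of the other 18 libraries. Pdgfra, the platelet-derived growth factor receptor of interstitial fibroblasts, was between 66.5 and 179 CPM in 10 libraries and between 0.543 and 14.4 CPM in the other 10. The high side held 4 of 5 WT libraries in each treatment and 1 of 5 WWP2-/- libraries in each treatment. The WWP2-/- libraries on the high side were the 2 with low Acta2, so within WWP2-/- cells these features cannot be told apart. All 10 libraries with high Pdgfra also had Xist above 1 CPM, and of the other 10 libraries 1 had. Xist is transcribed in female cells and Ddx3y in male cells. Of the 20 libraries 6 had Xist alone above 1 CPM, 9 had Ddx3y alone and 5 had both, so those 5 held transcripts of both sexes. Of the 10 WT libraries 4 had Xist alone, 2 Ddx3y alone and 4 both, and of the 10 WWP2-/- libraries 2, 7 and 1. Genotype was thus not evenly spread over Pdgfra or sex-linked transcripts, and a fit with Xist as a covariate cannot tell these apart. In bulk RNA, fewer cells of a type and less RNA per cell cannot be told apart.

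Levels between genes were set side by side per kilobase of exon (RPKM). In untreated WT cells Fstl1 stood highest at 351 RPKM, followed by Fst at 72.5, Inhba at 39.1, Inhbb at 18.4 and Acvr1 at 13.8. Below these came Acvr2a, Acvr1b, Fstl3 at 6.40 and Acvr2b, which did not exceed 0.557 RPKM in any untreated WT library. The lowest Fstl1 library was above the highest Fst library, whereas the ranges of Fst and Inhba overlapped, as did those of Inhba and Inhbb. Of the type II receptor genes, the lowest Acvr2a library was above the highest Acvr2b library in all 4 groups. In the other 3 groups the mean of Inhba stood above that of Fst, with overlapping ranges, but with the longest transcript as length Fst was above Inhba in untreated WWP2-/- cells as well (82.5 against 75.4 RPKM). In both WWP2-/- groups the mean of Inhbb stood below that of Acvr1b, again with overlapping ranges.

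**Figure D1:**
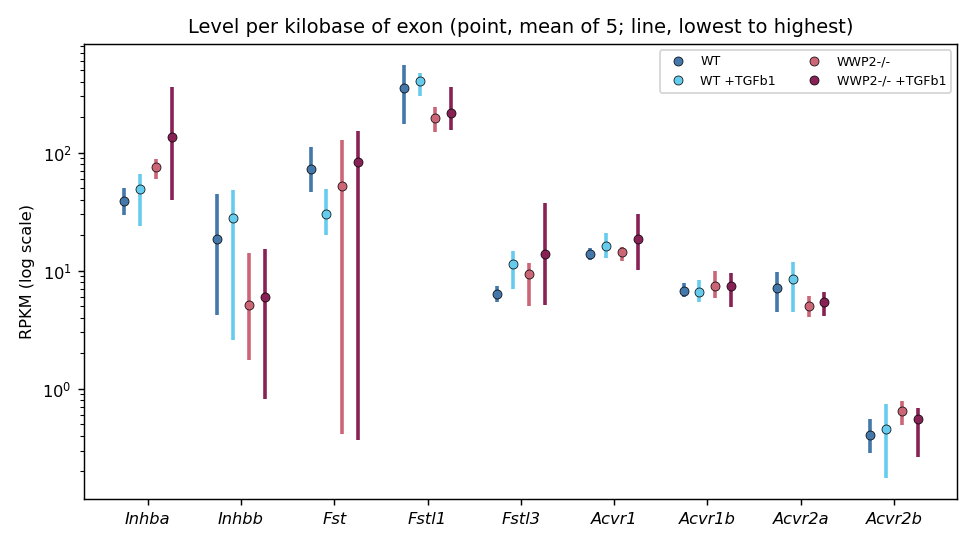
RPKM (log scale) of the 9 genes in the 4 groups; points are means of 5 libraries and lines run from the lowest to the highest library. Fstl1 is the highest gene by mean in each group and Acvr2b the lowest, and Fst spans the widest range in the WWP2-/- groups.

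The first question was whether loss of WWP2 changed the activin system in TGFb1-treated cells. With TGFb1, 0 of 9 members passed an adjusted P of 0.05 in edgeR's quasi-likelihood test, in a comparison in which 6.07% of all genes did (2.1% higher and 3.96% lower in WWP2-/- cells). At an unadjusted P under 0.05 there were 4 members, Inhba, Inhbb, Fstl1 and Acvr2a, beside 5035 of the 20407 genes tested. The DESeq2 Wald test called 3 members, Inhba, Inhbb and Fstl1, beside 2672 of all genes. The median log2 fold change was 0.18 over the members and 0.05 over all genes tested. In untreated cells 0 of 9 passed, against 0.725% of all genes (0.103% higher and 0.622% lower). An unadjusted P under 0.05 was found for 3 members and 3044 of all genes, and DESeq2 called 0 members and 743 genes. There the medians were 0.067 over the members and 0.076 over all genes.

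Inhba was the 1 member whose genotypes did not overlap in untreated cells. With TGFb1 no member was free of overlap, and 5.67% of all genes were. Untreated WT replicates 1 to 5 had 239.6, 190.4, 269, 319 and 233 CPM, and untreated WWP2-/- replicates 567, 380.5, 466, 490.5 and 504 CPM. All 5 WWP2-/- libraries thus lay above all 5 WT libraries. In that comparison 2.79% of all genes were free of overlap, counted in either direction. Mean levels were 482 ± 67.8 CPM in WWP2-/- and 250.1 ± 47.4 CPM in WT cells (SD, n = 5), and the fitted log2 difference was 0.95 (SE 0.45, adjusted P = 0.338). With Xist as a covariate the difference was 0.81 (adjusted P = 0.323). The highest untreated WT library, at 319 CPM, was the one with low Pdgfra. The untreated WWP2-/- library with high Pdgfra had 466 CPM, within the range of the others.

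With TGFb1 the Inhba values were 424, 263, 417.5, 152 and 317 CPM in WT cells and 516, 949, 2300, 252 and 282 CPM in WWP2-/- cells. The groups overlapped, with 3 WWP2-/- libraries above every WT library. The log2 fold change was 1.45 (SE 0.46, 95% interval 0.49 to 2.42, adjusted P = 0.0654). WWP2-/- replicate 3 decided much of it: without that library the log2 fold change was 0.66 with adjusted P = 0.233. Leaving out WWP2-/- replicate 1, 4 or 5 or WT replicate 3 took the adjusted P to between 0.0445 and 0.0497. With Xist as a covariate the log2 fold change was 1.215 (adjusted P = 0.162).

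Inhbb stood on the opposite side. It had 59.1, 54.3, 188, 18.1 and 71.5 CPM in untreated WT cells and 18.2, 7.42, 59.6, 12.4 and 11.7 CPM in untreated WWP2-/- cells. Most WWP2-/- libraries were low and most WT libraries high, and each group held 1 library on the other group's side. The log2 fold change was -1.84 (SE 0.79, adjusted P = 0.288).

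With TGFb1 Inhbb had 139, 151, 11.1, 90.6 and 204 CPM in WT cells and 64.7, 14.2, 3.47, 25.2 and 20.7 CPM in WWP2-/- cells. Here too a single WT library lay among the WWP2-/- values. The log2 fold change was -2.22 (SE 0.80, 95% interval -3.88 to -0.55, adjusted P = 0.0966). Without WT replicate 3 it was -2.52 (adjusted P = 0.0343), and without WWP2-/- replicate 1 it was -2.93 (adjusted P = 0.0380).

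The libraries of a group that went against the others in Inhbb were those that differed in Pdgfra. Inhbb lay between 54.3 and 204 CPM in the 10 libraries with high Pdgfra and between 3.47 and 25.2 CPM in the 10 with low Pdgfra, without overlap. On the high side the WWP2-/- libraries had 59.6 CPM untreated and 64.7 CPM with TGFb1, and the WT libraries 54.3 to 188 and 90.6 to 204 CPM. On the low side the single WT libraries had 18.1 and 11.1 CPM, and the WWP2-/- libraries 7.42 to 18.2 and 3.47 to 25.2 CPM. The division at 50 CPM of Pdgfra was set after these values were seen. With Xist, which divides nearly the same libraries, as a covariate, the log2 fold change of Inhbb with TGFb1 was -0.58 (adjusted P = 0.535). The summed level of the 9 fibroblast markers moved with genotype as well, with 4648 to 20970 CPM in untreated WT, 10670 to 33960 CPM in TGFb1-treated WT, 4293 to 10340 CPM in untreated WWP2-/- and 5271 to 13210 CPM in TGFb1-treated WWP2-/- libraries. The part of cell composition in the Inhbb difference was not tested beyond these values.

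**Figure D2:**
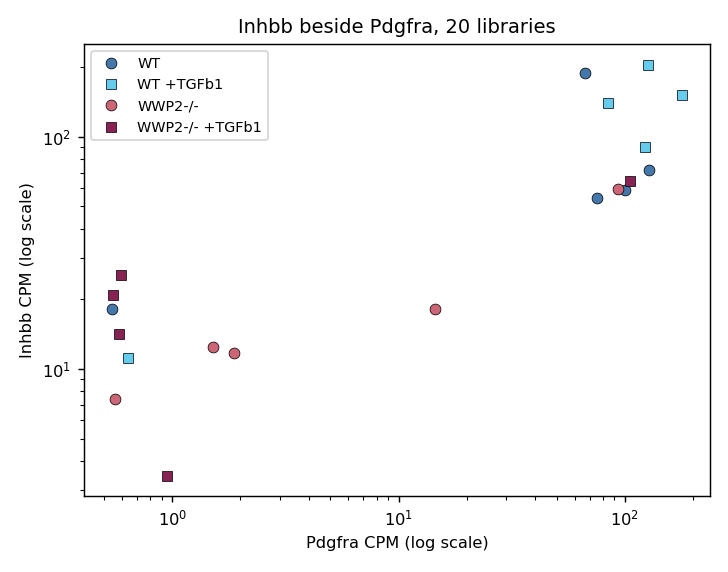
Inhbb CPM against Pdgfra CPM (both log scales) in the 20 libraries, coloured by group, circles untreated and squares with TGFb1. The 10 libraries with Pdgfra above 50 CPM lie at 54.3 CPM of Inhbb or more, and the 10 others at 25.2 CPM or less, in both genotypes.

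Fst, the main activin antagonist, spread widely within the WWP2-/- groups. It had 285, 291, 360.0, 517 and 211 CPM in untreated WT cells and 262, 588, 1.89, 204 and 149.9 CPM in untreated WWP2-/- cells. With TGFb1 it had 121, 98.5, 225, 150.5 and 92.4 CPM in WT cells and 1.68, 385, 161, 653 and 697 CPM in WWP2-/- cells. The lowest values belonged to the 2 WWP2-/- libraries with low Acta2, and the remaining WWP2-/- libraries ran from 149.9 to 697 CPM.

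Fst was also divided by Pdgfra within each group. The libraries with high Pdgfra had 211 to 360.0 CPM of Fst in untreated WT, 92.4 to 150.5 CPM in TGFb1-treated WT, 1.89 CPM in untreated WWP2-/- and 1.68 CPM in TGFb1-treated WWP2-/- cells. Those with low Pdgfra had 517, 225, 149.9 to 588 and 161 to 697 CPM in the same order, so the low-Pdgfra libraries had more Fst in all 4 groups. Each WT group had 1 library with low Pdgfra. In each WWP2-/- group the 1 library with high Pdgfra was also the one with low Acta2.

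Macrophage markers were set beside Fst too. The summed level of the 8 markers was 156.5 to 3876 CPM in untreated WT, 79.6 to 438 CPM in TGFb1-treated WT, 90.0 to 1742 CPM in untreated WWP2-/- and 86.7 to 3469 CPM in TGFb1-treated WWP2-/- libraries, with medians of 829, 147, 498 and 934 CPM. The library with the most Fst had the highest sum in 3 of 4 groups, and in both WWP2-/- groups the library with the least Fst had the lowest. In untreated WT the lowest sum belonged to replicate 3, which had 360.0 CPM of Fst. The tubular list varied between libraries as well. In the same order of groups its sums were 32.8 to 420, 36.6 to 198, 13.8 to 708 and 12.1 to 546 CPM. Its medians were 279, 65.2, 260.5 and 263 CPM. The part of any of these marker sets in the level of Fst was not tested.

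With TGFb1 the log2 fold change was 1.47 (SE 0.97, adjusted P = 0.372), and untreated it was -0.46 (SE 0.96, adjusted P = 0.842). Without the 2 low-Acta2 libraries Fst was higher in TGFb1-treated WWP2-/- cells, by 1.77 on the log2 scale with adjusted P = 0.0154. These libraries were left out after their values were seen, and they are the 2 with the least Fst. Taking them out raises the WWP2-/- mean by itself, so no conclusion is drawn from it. That fit called 3480 of all genes, against 1238 in the main fit. With Xist as a covariate the sign with TGFb1 turned, at -0.65 (adjusted P = 0.816), and the untreated value was -2.02 (adjusted P = 0.288).

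Fstl1, the highest member per length, had its lower values mostly in WWP2-/- libraries. It had 1614, 1483, 2733, 863 and 1933 CPM in untreated WT cells and 969, 742, 761.5, 1203 and 1139 CPM in untreated WWP2-/- cells. The log2 fold change was -0.84 (SE 0.28, adjusted P = 0.176), and it was -1.05 with adjusted P = 0.0321 when WT replicate 4 was left out. With TGFb1 it had 1966, 2341, 1479, 2049 and 2151 CPM in WT cells and 871, 1123, 1775, 783 and 765 CPM in WWP2-/- cells.

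In TGFb1-treated cells 4 of 5 WWP2-/- libraries lay below every WT library, and the exception was WWP2-/- replicate 3. The log2 fold change was -0.91 (SE 0.28, 95% interval -1.49 to -0.33, adjusted P = 0.0579). Without that replicate it was -1.19 (adjusted P = 0.0241), and without WT replicate 3 it was -1.01 (adjusted P = 0.0340). Fstl1 divided by Pdgfra within WT cells, where the single low-Pdgfra library lay below the others in both treatments (863 against 1483 to 2733 CPM, and 1479 against 1966 to 2341 CPM). Within WWP2-/- cells it did not: the high-Pdgfra libraries had 761.5 and 871 CPM, within the range of the others. With Xist as a covariate the log2 fold change was -0.72 untreated and -0.77 with TGFb1 (adjusted P = 0.204 and 0.169).

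Fstl3 had means of 15.7 ± 2.28 and 23.0 ± 6.36 CPM in untreated WT and WWP2-/- cells, and of 27.9 ± 7.17 and 34.1 ± 32.3 CPM with TGFb1 (SD, n = 5 each). In untreated cells 4 of 5 WWP2-/- libraries exceeded every WT library, and replicate 2 was below all of them (log2 fold change 0.56, SE 0.41, adjusted P = 0.533). With TGFb1 a single WWP2-/- library, replicate 3, had 90.8 CPM and the other 4 had 12.5 to 27.9 CPM (log2 fold change 0.29, SE 0.40, adjusted P = 0.709). Without that library the sign turned, at -0.50. Of the exon bases of Fstl3, 47.3% overlap exons of Prss57 on the other strand. How reads there were assigned depends on a strand setting that is not given in the sources used here, so the level of Fstl3 is uncertain. The corresponding share was 7.84% for Acvr2a with Orc4, 2.51% for Fst with Gm47040 and 0 for the other 6 members.

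**Figure D3:**
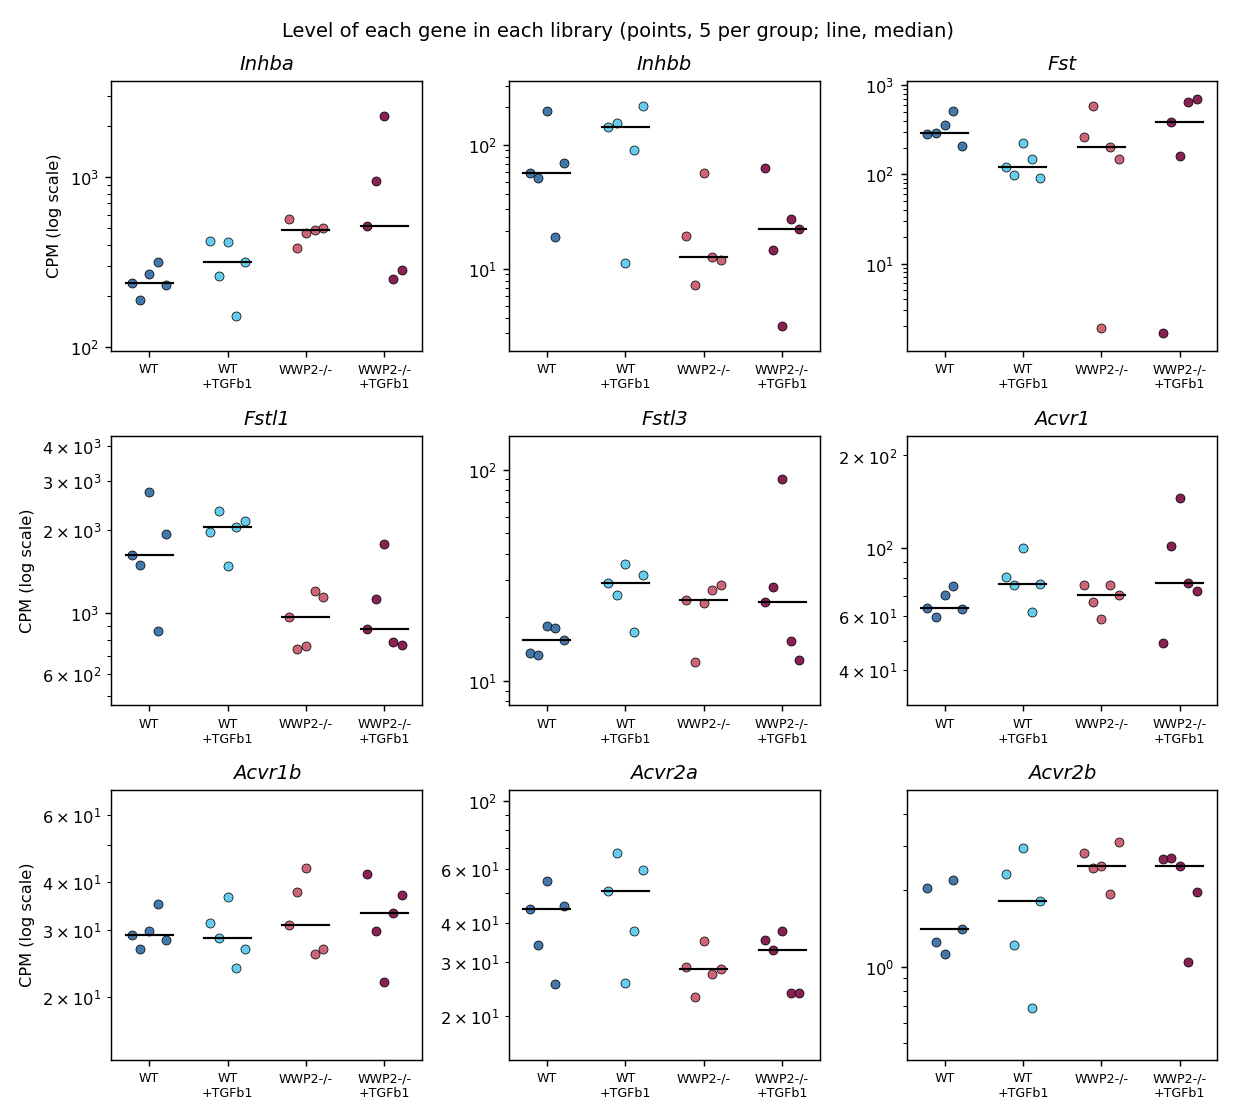
CPM (log scale) of each of the 9 genes in each of the 20 libraries; points are replicates in order within a group and lines are group medians of 5. The genotypes separate without overlap for Inhba in untreated cells, and Fst has 1 library near 2 CPM in each WWP2-/- group.

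No receptor gene passed the threshold between genotypes, and the largest differences were those of Acvr2a with TGFb1 and Acvr2b untreated. Acvr2a, a type II receptor gene, had 44.5, 34.0, 55.0, 25.4 and 45.4 CPM in untreated WT cells and 28.9, 23.1, 35.1, 27.3 and 28.4 CPM in untreated WWP2-/- cells. With TGFb1 it had 50.7, 67.6, 25.6, 37.7 and 59.7 CPM in WT cells and 35.3, 32.6, 37.9, 23.8 and 23.7 CPM in WWP2-/- cells. The WT libraries inside the WWP2-/- range included the 2 with low Pdgfra, at 25.4 and 25.6 CPM.

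The log2 fold change of Acvr2a was -0.52 (SE 0.24, adjusted P = 0.321) in untreated cells and -0.66 (SE 0.24, adjusted P = 0.101) with TGFb1. Without WT replicate 3 the latter was -0.83 with adjusted P = 0.0210. With Xist as a covariate it was -0.22 with TGFb1 and -0.21 untreated (adjusted P = 0.553 and 0.542). Acvr2a was between 34.0 and 67.6 CPM in the 10 libraries with high Pdgfra and between 23.1 and 37.9 CPM in the other 10.

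The other type II gene, Acvr2b, was scarce in every group, with 0.687 to 3.11 CPM over the 20 libraries. Its means were 1.602 ± 0.481 CPM in untreated WT and 2.56 ± 0.441 CPM in untreated WWP2-/- cells, and 4 of 5 WWP2-/- libraries exceeded every WT library (log2 fold change 0.68, SE 0.34, adjusted P = 0.353). With TGFb1 the log2 fold change was 0.28 (SE 0.34, adjusted P = 0.661).

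Acvr1b, which encodes the main activin type I receptor, had the narrowest range of the 9 members and ran from 21.9 to 43.7 CPM over the 20 libraries, with log2 fold changes of 0.15 in both genotype comparisons. The 95% interval was -0.21 to 0.51 untreated and -0.21 to 0.52 with TGFb1, both within 1 log2 unit of 0. Acvr1 ran from 49.3 to 145 CPM, with log2 fold changes of 0.067 (95% interval -0.36 to 0.49) untreated and 0.18 (95% interval -0.24 to 0.60) with TGFb1. Its highest library was again TGFb1-treated WWP2-/- replicate 3, without which the difference with TGFb1 was -0.081. With Xist as a covariate the differences were -0.12 untreated and -0.098 with TGFb1. Acvr1 was higher in the low-Pdgfra libraries of each group, at 75.2 against 59.7 to 70.2 CPM in untreated WT, 99.9 against 61.8 to 80.6 CPM in TGFb1-treated WT, 66.8 to 76.1 against 58.6 CPM in untreated WWP2-/- and 72.5 to 145 against 49.3 CPM in TGFb1-treated WWP2-/- cells.

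The second question was the response to TGFb1 itself. In WT cells 0 of 9 members passed in edgeR's quasi-likelihood test, and 0% of all genes did. No member was free of overlap either, and 1.35% of all genes were. Of the 20407 genes, 1397 had an unadjusted P under 0.05 and the DESeq2 Wald test called 27, and of the members 0 did by either measure. In WWP2-/- cells 0 of 9 members and 0% of all genes passed, and 0 of 9 members were free of overlap against 0.377% of all genes. There 713 genes had an unadjusted P under 0.05, DESeq2 called 49, and of the members 0 did by either measure. The low count was shared by the whole table, in a fit that did not pair treated with untreated libraries.

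In WT cells the antagonists had the largest fitted differences of the members. Fst had 332.7 ± 115.5 CPM untreated and 137 ± 53.9 CPM with TGFb1 (SD, n = 5 each), and 4 of 5 treated libraries lay below every untreated library (log2 fold change -1.28, SE 0.97, adjusted P = 0.892). The medians of the summed macrophage markers and of the summed tubular markers were also lower in the treated WT libraries, as given above. The spread in that fit is shared with the WWP2-/- groups, in which Fst varied most. Fstl3 had 4 of 5 treated libraries above every untreated library (log2 fold change 0.83, SE 0.41, adjusted P = 0.754). Inhbb differed by 0.61 (SE 0.76, adjusted P = 0.943), with the lowest value in the treated group, and the other 6 members by less than 0.5 in size.

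In WWP2-/- cells the fitted differences of Inhba, Fst and Fstl3 were 0.84 (SE 0.45), 0.65 (SE 0.96) and 0.57 (SE 0.41) on the log2 scale, each with adjusted P = 0.9999. For Inhba 2 treated libraries lay above every untreated library and 2 below. Without treated replicate 3 the difference of Inhba was 0.061 and that of Fstl3 was -0.20.

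**Figure D4:**
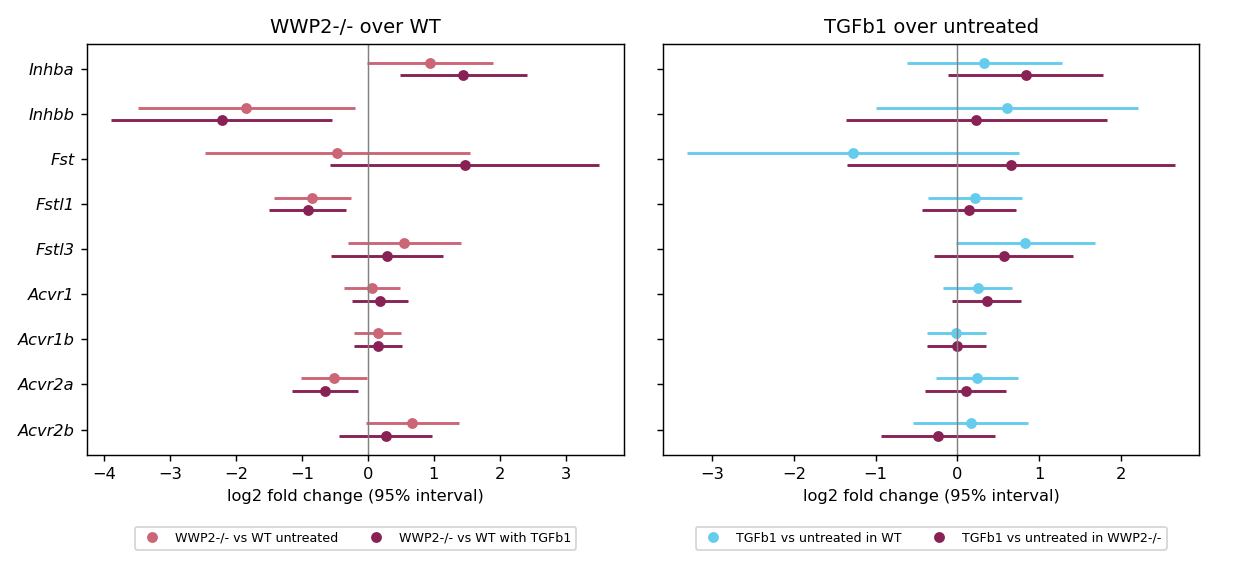
Log2 fold changes with 95% intervals for the 9 genes: left, WWP2-/- over WT in untreated and TGFb1-treated cells; right, TGFb1 over untreated in WT and WWP2-/- cells. Intervals are narrowest for Acvr1b and widest for Fst, and for Inhbb, Fstl1 and Acvr2a both genotype intervals lie below 0 although none of these genes passes after adjustment.

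Whether the response to TGFb1 differed between genotypes was tested as an interaction. Here 0 of 9 members and 0% of all genes passed in edgeR's test, 1424 genes had an unadjusted P under 0.05 and DESeq2 called 10, and of the members 0 did by either measure. The widest fitted interaction was that of Fst, at 1.93 on the log2 scale (SE 1.36, 95% interval -0.93 to 4.79, adjusted P = 0.863). That of Inhba was 0.50 (SE 0.64, adjusted P = 0.965). Without TGFb1-treated WWP2-/- replicate 3 the sign of the Inhba interaction turned, at -0.27.

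Ligand and antagonist genes were set side by side as the log2 ratio of Inhba to Fst CPM in each library. The ratio was not corrected for length (6390 exon bases for Inhba and 4589 for Fst). A value of 0 therefore does not mark equal numbers of transcripts, and the library counts below hold for CPM only. In untreated WT cells the ratio averaged -0.37 ± 0.33 (SD, n = 5), and Fst exceeded Inhba in 4 of 5 libraries. In TGFb1-treated WT cells it averaged 1.18 ± 0.75 with a lowest value of 0.014, and Fst exceeded Inhba in 0 of 5 libraries. The means were 2.29 ± 3.29 in untreated and 2.14 ± 4.04 in TGFb1-treated WWP2-/- cells, where the libraries with low Acta2 reached 7.95 and 8.26. The medians there were 1.27 and 1.30, and Fst exceeded Inhba in 1 and 2 of 5 libraries. No test was run on this ratio.

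**Figure D5:**
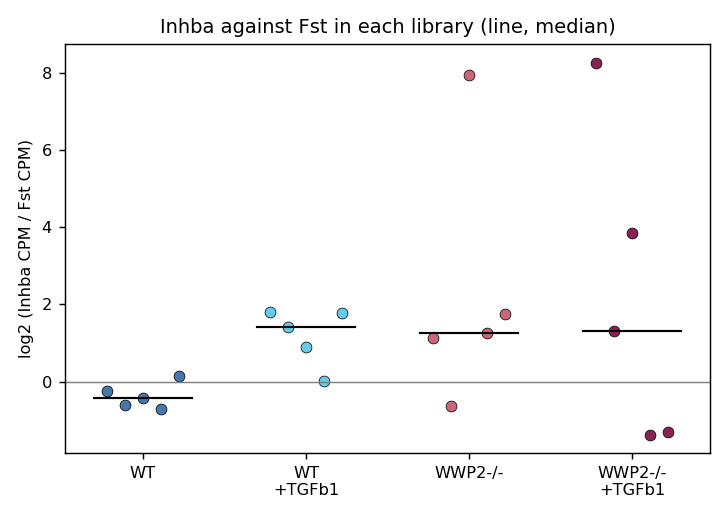
Log2 ratio of Inhba to Fst CPM in each library by group; points are replicates, lines are medians of 5 and the grey line marks equal CPM. WT values lie mostly below 0 untreated and above 0 with TGFb1, and 1 library in each WWP2-/- group stands near 8.

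The members did not vary as a unit. Over the 20 libraries, the log2 CPM of Inhba was correlated with that of Fstl3 (Pearson r = 0.81), Acvr1 (0.69) and Acvr2b (0.69), and that of Inhbb with Acvr2a (0.80). Fstl1 went with Acvr2a (0.83), and Inhba against Inhbb (-0.60). Without the 2 low-Acta2 libraries the first was 0.81, that of Inhba with Acvr1 was 0.88, and that of Fst with Fstl1 was -0.74, against 0.069 over all 20. These describe 20 libraries that share 4 groups and fall on either side in Pdgfra, and they carry no test.

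Among 13518 genes with a mean of at least 1 CPM, those whose log2 CPM went most closely with Inhba over the 20 libraries were Klf12 (Pearson r = 0.95), Xylt1 (0.95) and Itga5, the fibronectin receptor subunit alpha 5 (0.93). For Inhbb they were the matrix protein genes Matn2 (0.97), Lama4 (0.96) and Emilin2 (0.95). For Fstl1 they were the Wnt receptor gene Fzd2 (0.98), Fam114a1 (0.97) and Rbms3 (0.97), and for Acvr2a they were the amino acid transporter gene Slc38a2 (0.97), Pcdhgc5 (0.96) and the S6 kinase gene Rps6kb1 (0.96). Fst went with Gm20300 (0.96), the glutamate dehydrogenase gene Glud1 (0.96) and Ablim1 (0.95). By Spearman's rho these had 0.81, 0.86 and 0.81 and were all outside the 3 nearest to Fst. The 2 libraries with low Acta2 lie far below the others in Fst and weigh on its Pearson values. The 3 nearest genes were Ppp1r13b, Cemip2 and Mast4 for Fstl3, Ppfibp1, Prune2 and Hyal1 for Acvr1, Rhebl1, Fchsd1 and Ddx55 for Acvr1b, and Lrig2, Cabin1 and Fam208a for Acvr2b, with r from 0.89 to 0.93. By Spearman's rho 10 of these 27 genes stayed among the 3 nearest.

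The rest of the pathway was read from lists of related genes. Of 10 other ligand genes 4 were expressed enough to be tested, Inha, Gdf11, Gdf3 and Lefty1, and 0 of 4 passed in either genotype comparison by edgeR or DESeq2. At an unadjusted P under 0.05 there was 1 with TGFb1 and 0 untreated. Without the low-Acta2 libraries 2 passed with TGFb1, in a fit that called 3480 of all genes. Of 11 other receptors and coreceptors 9 were tested and 0 passed with TGFb1 or untreated by edgeR, with 1 and 3 at an unadjusted P under 0.05 and 1 and 0 by DESeq2.

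The other antagonists with follistatin domains were near the limit of detection. With TGFb1, 2 of 3 tested were lower in WWP2-/- cells, against 3.96% of all genes. Wfikkn2 fell from 1.55 to 0.441 CPM (log2 fold change -1.81, SE 0.42, adjusted P = 0.0182) and Fstl4 fell from 0.424 to 0.117 CPM (-1.85, SE 0.53, adjusted P = 0.0454). Untreated, 1 of 3 was lower, Fstl4 (-3.25, SE 0.59, adjusted P = 0.0214), against 0.622% of all genes. Wfikkn2 binds myostatin and its relative GDF11.

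Of 13 tested SMAD2/3 transducers and regulators, 1 was higher in TGFb1-treated WWP2-/- cells by edgeR, against 2.1% of all genes, and 0 were lower. Counted in either direction, 1 of 13 is close to the 6.07% of all genes. DESeq2 called 2 of the 13 with TGFb1. In untreated cells 0 passed by edgeR or DESeq2, with 4 at an unadjusted P under 0.05. The gene called by edgeR was Nedd4l, a HECT-type ubiquitin ligase of the same family as WWP2 that targets activated SMAD2 and SMAD3. It had 107 ± 44.7 CPM against 45.1 ± 10.6 CPM (log2 fold change 1.24, SE 0.33, adjusted P = 0.0335).

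Of 12 genes known as targets of TGFb and activin signalling, 3 matrix genes were lower in TGFb1-treated WWP2-/- cells, against 3.96% of all genes. The list was not lowered as a whole: 6 of the 12 had a positive log2 fold change. Its median was 0.029, against 0.050 over all genes tested. The collagen I genes were lower, Col1a2 by 2.63 on the log2 scale (SE 0.57, adjusted P = 0.0142) and Col1a1 by 1.98 (SE 0.58, adjusted P = 0.0492). The matrix protein gene Postn was lower by 2.44 (SE 0.68, adjusted P = 0.0407). In untreated cells 0 of the 12 target genes listed passed by edgeR and 2 by DESeq2, with 4 at an unadjusted P under 0.05. With Xist as a covariate none of these 6 genes (Wfikkn2, Fstl4, Nedd4l, Col1a2, Col1a1 and Postn) passed with TGFb1, with adjusted P from 0.0605 for Nedd4l to 0.291 for Postn. Leaving out any one of TGFb1-treated WT replicates 1, 2, 4 and 5 or of WWP2-/- replicate 4 ended the calls of Fstl4, Nedd4l, Postn and Col1a1, with adjusted P of at most 0.111. Leaving out WT replicate 2 also ended that of Wfikkn2 (adjusted P = 0.0531), whereas Col1a2 passed without any one library (adjusted P of at most 0.0417). Leaving out WWP2-/- replicate 5, 3, 2 or 1 ended 4, 1, 3 and 1 of these 6 calls. The untreated call of Fstl4 held in 3 of 10 such fits, with adjusted P of at most 0.0904.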

How the data were processed

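RNA from 20 cultures was sequenced as poly-A selected, paired-end libraries. The authors aligned reads to GRCm38 (mm10) with STAR and deposited featureCounts counts per gene on exons, not normalized; the strand setting is not given in the sources used here. Names, positions and exon lengths came from GENCODE M21, another release than the authors', and promoters from RefSeq (GRCm38.p6). As in the study, a gene was tested if 5 or more libraries each held 5 or more counts. All 20 libraries were fitted with 4 groups in edgeR 4.0.16 (TMM, glmQLFit and glmQLFTest; R 4.3.3), with Benjamini-Hochberg adjustment over 20407 genes at 0.05. The fit was tested on simulated counts that were independent between libraries. They held no division by Pdgfra or Xist and no related libraries, so that test does not cover these features of the data. DESeq2 1.42.0, which the study used, was an alternative. CPM and RPKM use TMM library sizes; correlations use log2(CPM + 2). No 2 libraries were identical. Named genes were the 9 members, Wwp2, Xist, the pathway-list genes past the threshold (at most 4 per list) and the 3 genes most like each member; Acta2, Pdgfra and other genes were named after their values were seen. The members and lists were chosen with earlier results of these data known. 1 gene of the target list is not reported here.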

Additional observations from a re-analysis of the deposited data

Results flagged for a closer look

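Among 36 sets of 5 libraries (9 members in 4 groups), 2 had a library far from the other 4 by Dixon's criterion, where chance marks about 1 in 20. Inhbb in untreated WWP2-/- replicate 3 was 59.6 CPM against 7.42 to 18.2 CPM in the other 4. That library also had 93.4 CPM of Pdgfra, 291 CPM of Xist and 38.9 CPM of Acta2. Fstl3 in TGFb1-treated WWP2-/- replicate 3 was 90.8 CPM against 12.5 to 27.9 CPM, in the library that also had the highest Inhba (2300 CPM) and Acvr1 (145 CPM).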

How the results depend on the processing

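In TGFb1-treated cells the number of members past the threshold between genotypes was 0, in a fit that called 1238 of all genes. It was 3 with the DESeq2 Wald test (2672 genes). It was also 3 without both low-Acta2 WWP2-/- libraries (3480 genes), which were chosen after seeing the data. Leaving out 1 library gave 0 to 4 members, the highest without WT replicate 3 (2730 genes). Untreated the number ranged from 0 to 1 when 1 library was left out, the highest without WT replicate 4 (743 genes). With Xist as a covariate the signs turned for Fst (-0.65) and Acvr1 (-0.098) with TGFb1 and for Acvr1 untreated (-0.12). Leaving out 1 library, the log2 fold change with TGFb1 ran from -0.50 to 0.50 for Fstl3 and from -0.081 to 0.32 for Acvr1, the response to TGFb1 in WWP2-/- cells from -0.20 to 0.79 for Fstl3, and the interaction of Inhba from -0.27 to 0.76. The causes were not tested. Of 486 alternative values for 26 fold changes of members, 479 kept their direction and 16 passed the threshold. The 26 were all genotype differences, and those TGFb1 responses and interactions of at least 0.5 in size. Responses and interactions nearer to no change, which turn sign most easily, were not followed. Over 18 alternatives the adjusted P with TGFb1 ran from 0.0187 to 0.233 for Inhba, 0.0189 to 0.535 for Inhbb, 0.0154 to 0.816 for Fst, 0.0218 to 0.169 for Fstl1 and 0.0210 to 0.553 for Acvr2a. With the longest transcript as length, 5 members changed place in the order of untreated WT cells and 2 in that of untreated WWP2-/- cells. The mean log2 Inhba to Fst ratio in TGFb1-treated WWP2-/- cells ran from 0.62 to 3.02 when 1 library was left out. Replicate numbers did not pair the samples: same-numbered libraries had correlations of their deviations from -0.53 to 0.52. Some libraries with different numbers were closer. Untreated WWP2-/- replicate 3 and treated replicate 1 reached 0.95, and untreated replicate 2 and treated replicate 5 reached 0.89. Untreated WT replicate 4 and treated replicate 3 reached 0.76. The labels do not say whether such libraries shared a culture, and the main tests were unpaired. The replicate block left the number of members at 0, while genes called with TGFb1 fell from 1238 to 670 and untreated from 148 to 1. Wide intervals limit what could be seen: with TGFb1 the SE of the genotype difference was 0.97 for Fst and 0.80 for Inhbb. It was 0.34 for Acvr2b, the member with the fewest counts.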
